A study of Rattus norvegicus with 4 samples.

Results

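Gap junction connexins and junction plaque proteins were examined in cell lines of a rat prostate tumour through 5 genes: the connexin genes Gja1, Gjb1 and Gjb2, and the plaque genes Tjp1 and Jup. These 5, of 4736 genes that the platform annotation named by a single symbol, were chosen from earlier results on these same arrays, so their differences between the lines are given as a description. No p is given for them. Counts of limma calls among them, as reported and under other processing, support nothing. The reported count is given with the share over all probe sets. Each gene was read by 1 probe set, and these 5 probe sets were all that the annotation assigned to the 5 symbols among the 8799 on the array.

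The Mat-Lylu line, described by the submitters as highly metastatic, was compared with the G line, described as non-metastatic. Both are sublines of the Dunning R3327 rat prostatic tumour. Biotinylated cRNA made from total RNA was hybridised to 2 arrays per line, 4 arrays in all, and the labels name no agent, time or genetic change. Each group is 1 cell line, and the labels name no separate cultures, so errors and p-values cover only how far these arrays differ, which may be technical.

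Connexins are membrane proteins that assemble into hemichannels; hemichannels of neighbouring cells dock to form gap junctions, through which ions and small metabolites pass. Gja1 encodes Cx43, Gjb1 Cx32 and Gjb2 Cx26. In the prostate, Cx43 has mainly been described in basal cells and Cx32 in luminal cells. Tjp1 encodes ZO-1, a scaffold of tight junctions that also binds the tail of Cx43 at the edge of gap junctions. Jup encodes plakoglobin, a relative of beta-catenin that links desmosomal and classical cadherins to the cytoskeleton.

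Signals were MAS5 intensities on a linear scale. A background level was set for each array from 23 control probe sets for bacterial, yeast and mouse sequences, as their percentile 95, and it ran from 1891 to 2311 signal units. Array medians ran from 2998 to 3156. Where both arrays of a line lay under it, the level in that line is known only as a bound. Log2 signals correlated at r = 0.990 between the Mat-Lylu arrays and at r = 0.990 between the G arrays, against 0.822 to 0.829 between the lines, over 6555 tested probe sets that are not independent of each other. Markers of some cell types differed between the lines. Of 7 fibroblast markers, 1 was above background on both Mat-Lylu arrays (Col1a1), against 7 in G, with summed signals of 10903 to 10962 in Mat-Lylu and 142753 to 147866 in G. Of 4 luminal epithelial markers measured, Krt8 was above background on both Mat-Lylu arrays and none was in G; Krt8 and Krt18 were each above it on 1 G array, and Krt19 and Epcam were under it on all 4 arrays. The luminal markers summed to 45296 to 45702 in Mat-Lylu and 5166 to 6212 in G, and no marker was at 0. Nearly all of the Mat-Lylu sum was Krt8, at 41435 and 41521 in Mat-Lylu against 1978 and 1691 in G. The log2 difference of Krt18 was 0.01. Basal marker Krt5 was above background in both lines, while Krt14 and Tp63 were under it. Smooth muscle markers were above background for 4 of 5 genes in both lines, with sums of 35594 to 38087 in Mat-Lylu and 45608 to 48050 in G. Endothelial, leukocyte and neural markers were above it for 1 of 3, 1 of 2 and 3 of 3 genes in both lines. The summed signals of the endothelial, leukocyte and neural markers each overlapped between the lines, and those of the smooth muscle markers did not. The part of these marker differences in the results below was not tested.

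Gja1, the Cx43 gene, was above background in Mat-Lylu cells and below it in G cells. Its signals were 6829 and 5947 on the Mat-Lylu arrays, against 621 and 596 on the G arrays. Both Mat-Lylu arrays were high, both G arrays were low, and the lines did not overlap. Gja1 averaged 6388 ± 623 in Mat-Lylu and 608 ± 17.7 in G (SD, n = 2 arrays each), which is at least 3.08-fold higher in Mat-Lylu once the G values are raised to the background level. The fitted log2 difference (Mat-Lylu minus G, on log2(signal + 16)) was 3.36 with a standard error (SE) of 0.10, and its exact size is not measured because G lay under background. The Gja1 probe set is of the type that can match related transcripts. In RNA of whole cultures, more cells with the transcript and more transcript per cell cannot be told apart.

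Gjb1, the Cx32 gene, was above background in both lines at similar signals. It had 7820 and 8600 in Mat-Lylu, against 8702 and 8507 in G. The higher Mat-Lylu array lay between the G arrays, so the lines overlapped. The means were 8210 ± 552 in Mat-Lylu and 8604 ± 138 in G (SD, n = 2 each), with a log2 difference of -0.07 (SE 0.09). A larger difference was seen in 78% of tested probe sets. Some endothelial, leukocyte and neural markers were also above background in both lines. Whether the Gjb1 signal came from its own transcript alone was not tested.

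Gjb2, the Cx26 gene, was not above background on any array. Its signals were 854 and 681 in Mat-Lylu, against 780 and 786 in G. The G arrays fell between the Mat-Lylu arrays, and no fold is given because both lines lay under background. This probe set was also among the 25% of probe sets with the lowest mean log2 signal, which were left out of the fit. The annotation assigned a second probe set made from the same sequence accession to a different gene, Pzp, so the identity of the Gjb2 reading is less certain than the others; that second probe set was at 45.3 and 41 in Mat-Lylu and at 55.2 and 143 in G.

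Among the chosen connexin genes, Gja1 and Gjb1 were the pair above background, Gja1 in Mat-Lylu alone and Gjb1 in both lines. Their upstream sequences are shown for this reason. Each is the 250 bases before the transcript start in RefSeq's GRCr8 assembly, at chr20:36302314-36302563 on the plus strand for Gja1 and chrX:70541595-70541844 on the plus strand for Gjb1. Capitals mark the AP-1 motif TGAGTCA, the GC box GGGCGG or the Snail-type E-box CAGGTG, each searched on both strands.
Gja1: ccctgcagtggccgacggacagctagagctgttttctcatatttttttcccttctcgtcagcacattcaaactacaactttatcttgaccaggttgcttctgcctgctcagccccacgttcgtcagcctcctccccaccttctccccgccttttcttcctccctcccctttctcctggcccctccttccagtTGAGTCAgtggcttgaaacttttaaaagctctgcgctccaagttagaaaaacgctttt
Gjb1: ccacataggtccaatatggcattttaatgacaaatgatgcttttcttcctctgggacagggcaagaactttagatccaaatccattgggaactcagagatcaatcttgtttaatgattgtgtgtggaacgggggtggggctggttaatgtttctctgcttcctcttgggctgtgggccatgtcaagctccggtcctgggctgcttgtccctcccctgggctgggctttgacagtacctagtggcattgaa
The Gja1 window held 1 AP-1 motif, which began 58 bases before the start, and neither of the other motifs; the Gjb1 window held none of the 3 motifs. The annotated span of Gja1 begins at 36302490, inside its window, and its AP-1 motif lies past that position, inside the span. The windows of Gjb2, Tjp1 and Jup lie wholly inside the annotated spans of their genes. Of 33469 such windows in RefSeq's table, 4.05% held the AP-1 motif, 30.5% the GC box and 15.9% the E-box. The windows of Gjb2 and Jup each held 1 GC box and 1 E-box, that of Tjp1 held none of the 3, and no matches overlapped each other. GC content was 51.2% for Gja1, with 8 CpG dinucleotides, and 49.2% for Gjb1, with 2, against medians of 51.2% and 5 over all windows. The motifs were picked after the sequences had been seen, and a match is a description, not evidence of binding.

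**Figure D1:**
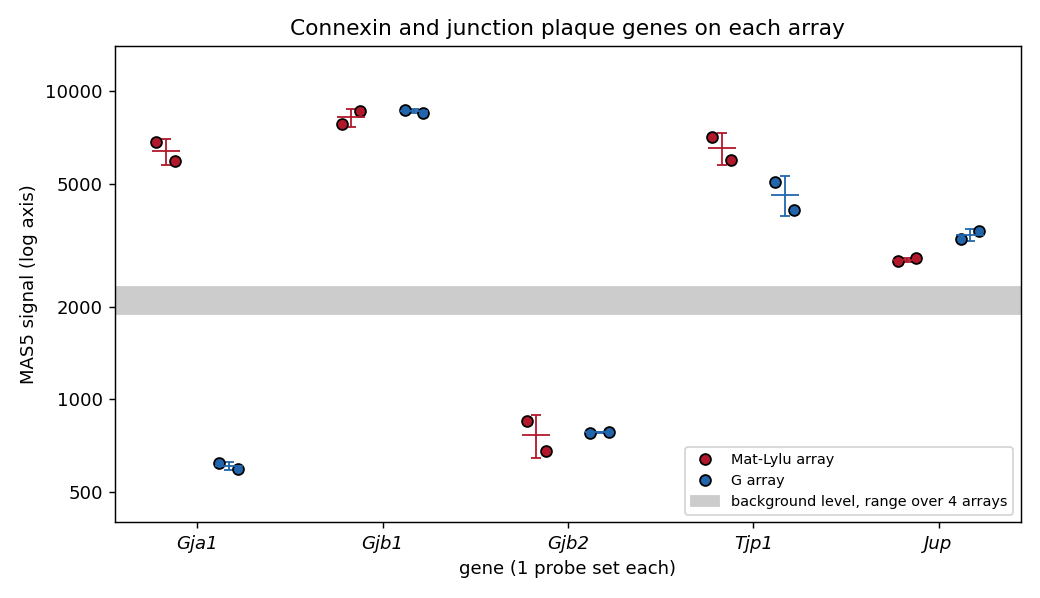
MAS5 signal (log axis) of the 5 genes, with each array as a point, Mat-Lylu left of G; the horizontal mark and bar are the mean and SD of the 2 arrays, and the grey band is the background level of 1891 to 2311. Gja1 lies above the band in Mat-Lylu and below it in G, Gjb2 lies below it in both lines, and the other genes lie above it on every array.

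Tjp1, the ZO-1 gene, was higher in Mat-Lylu. Its signals were 7071 and 5994 in Mat-Lylu, against 5086 and 4129 in G. All 4 arrays were above background and the lines did not overlap, although the arrays within each line were well apart. The means were 6532 ± 761 in Mat-Lylu and 4607 ± 677 in G (SD, n = 2 each), a 1.42-fold higher level with a log2 difference of 0.51 (SE 0.13). The log2 gap between arrays of 1 line was 0.24 in Mat-Lylu and 0.30 in G, and the nearest arrays of the 2 lines were 0.24 apart. The difference was 0.39 without Mat-Lylu replicate 0 and 0.36 without G replicate 1, the lowest values when 1 array was left out.

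Jup, the plakoglobin gene, was lower in Mat-Lylu by a small margin. It had 2808 and 2866 in Mat-Lylu, against 3306 and 3521 in G. The lines did not overlap, and all 4 arrays were above background. The means were 2837 ± 40.4 in Mat-Lylu and 3414 ± 153 in G (SD, n = 2 each), with a log2 difference of -0.26 (SE 0.08). A larger difference in either direction was seen in 38.1% of tested probe sets, compared with 21% for Tjp1. The Jup difference was -0.22 under quantile and median scaling and -0.24 under loess scaling, and limma did not call it under these scalings.

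**Figure D2:**
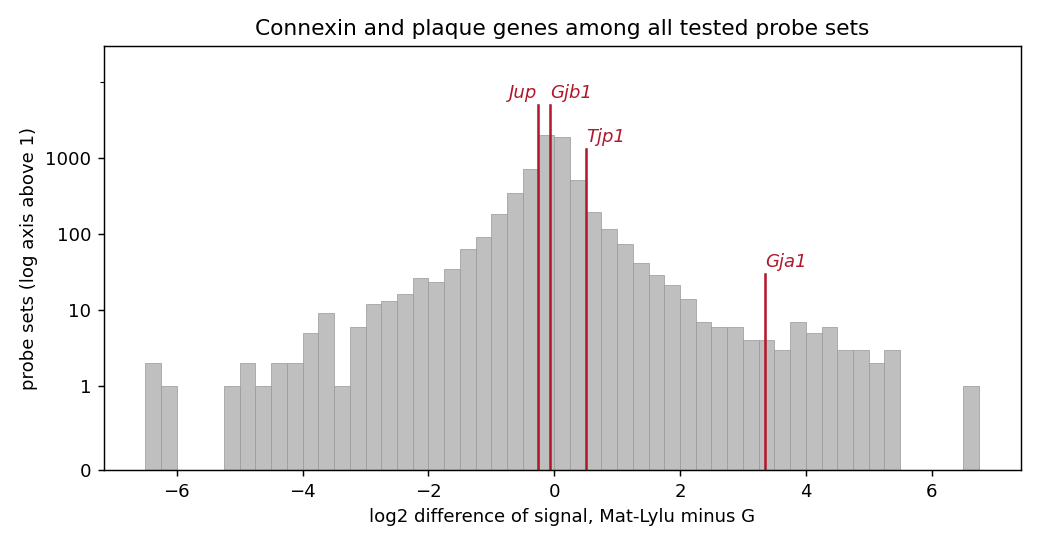
Histogram of the log2 difference (Mat-Lylu minus G) of the 6555 tested probe sets, in bins of 0.25, with the count on a log axis above 1; the red lines mark Gja1, Gjb1, Tjp1 and Jup. Gja1 at a fitted 3.36, whose exact size is not measured, lies in the sparse right tail. Gjb1 and Jup lie in the dense centre, and Tjp1 lies to the right of it, in a bin of 196 probe sets.

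Of the 4 tested probe sets of these genes, limma called 2 higher (Gja1 and Tjp1) and 1 lower (Jup) in Mat-Lylu, with a threshold of 0.05 on the adjusted p. Of all tested probe sets, 33.7% were called, 13.6% higher and 20.1% lower. The choice of the genes used this comparison, so nothing is read from the count. Gja1 entered the test through its Mat-Lylu level alone. The count of 3 became 1 without Mat-Lylu replicate 0 and 1 without G replicate 1, where Tjp1 and Jup were not among the calls. Without Mat-Lylu replicate 1, and under quantile, median and loess scaling, it became 2, without Jup. Of all 5 probe sets, 3 did not overlap between the lines, against 67.4% of tested probe sets, of which 28.5% had both Mat-Lylu arrays above both G arrays and 38.9% had them below.

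The other connexin genes on the array did not differ detectably between the lines. Of 20 other connexin and pannexin genes, 6 were measured and 4 were tested; limma called 0 of the 4, and none had an unadjusted p under 0.05. Gja4, the Cx37 gene of endothelium, averaged 4061 ± 109 in Mat-Lylu and 4046 ± 280 in G, with a log2 difference of 0.01 (SE 0.09). Gja5, the Cx40 gene, averaged 5998 ± 57.8 in Mat-Lylu and 6381 ± 165 in G on its brightest probe set, with a log2 difference of -0.09 (SE 0.08), and its other 2 probe sets had -0.09 and -0.11. Gjb5, a connexin gene of skin and placenta, averaged 5319 ± 95.9 in Mat-Lylu and 5141 ± 158 in G, at 0.05 (SE 0.08), and its 3 probe sets ran from -0.09 to 0.15. Gjd2, the neuronal Cx36 gene, had a log2 difference of -0.01 (SE 0.08). Gja3 and Gja6 were under background on every array. The median log2 difference of the 4 tested genes was -0.0013, against -0.02 over all 3867 tested genes.

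Tight junction genes other than Tjp1 included rises of Patj and Ybx3. Of 43 listed, 9 were measured and 7 tested: 2 rose, none fell and 5 did not pass, where 33.3% of all tested genes passed, 13.7% higher and 19.6% lower. The counts of this list and of those below are descriptions, and nothing particular to a list is read from them. Patj, a polarity scaffold, rose 1.51-fold on the fitted scale and at least 1.32-fold by the background level (adjusted p = 0.028), with 3299 and 2234 in Mat-Lylu against 1749 and 1843 in G; 1 of the Mat-Lylu arrays and both G arrays were under background. Ybx3, a ZO-1-binding transcription factor also called ZONAB, rose 1.35-fold, with 30952 ± 399 in Mat-Lylu and 22882 ± 75.0 in G (SD, n = 2 each, adjusted p = 0.010 in limma). Patj was no longer called without Mat-Lylu replicate 0 (adjusted p = 0.10), without G replicate 0 (0.065) or with signals floored at background (0.058), nor was Ybx3 without Mat-Lylu replicate 0 (0.12) or 1 (0.11); their adjusted p-values over all alternatives ran from 0.00056 to 0.10 and from 0.00044 to 0.12. Ocln, which encodes occludin, and Cldn3, a claudin gene, had log2 differences of -0.02 (SE 0.08) and -0.03 (SE 0.08) and did not pass. These values are from their brightest probe sets. The other probe sets of Ocln and the second of Cldn3 were under background on every array. Cldn7, Magi1 and Mpdz, named here with their values already seen, were under background on every array.

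Adherens junction genes included rises of Actn4 and Pvr and a fall of Nectin1. Of 26 listed, 8 were measured and tested: 4 rose, 1 fell and 3 did not pass, against 13.7% higher and 19.6% lower among all tested genes. The median log2 difference of the 8 was 0.48, against -0.02 over all tested genes. The 8 include Cdh6, whose limit is given below, and 3 genes under background on every array. Nothing is read from this median. Actn4, an actin crosslinker, rose 1.99-fold, with 11996 ± 792 in Mat-Lylu and 6003 ± 148 in G (log2 difference 1.00, SE 0.09, adjusted p = 7.8e-05 in limma). Pvr, a nectin-like adhesion receptor, rose at least 1.82-fold, with G under background (adjusted p = 6.6e-05). Cdh6, a cadherin gene, rose at least 1.15-fold, with G under background. It entered the test through its Mat-Lylu level alone, so no p is given. Once signals were floored at background it was not called. Afdn, which encodes the nectin-binding scaffold afadin, rose 1.64-fold on 1 of its 3 probe sets (adjusted p = 0.0029); this gene was added with its values in view. Nectin1, which encodes a nectin that binds afadin, fell 1.46-fold, with 4611 ± 113 in Mat-Lylu and 6755 ± 338 in G (adjusted p = 0.0015). Cdh2, the N-cadherin gene, and Cdh4 were under background on every array, at log2 differences of -0.08 (SE 0.09) and 0.13 (SE 0.10), and did not pass. The desmosome list had 15 genes and 1 measured, Pkp4, an armadillo relative of Jup, which did not pass (log2 difference -0.18, SE 0.09).

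Genes of kinases that act on Cx43 included rises of Csnk1a1, Prkcd and Cdk1. Of 12 kinase genes measured of 16 listed, 3 rose, none fell and 9 did not pass, where 33.3% of all tested genes passed. Csnk1a1, a casein kinase gene, rose 1.58-fold on 12847 and 11595 in Mat-Lylu, against 7786 and 7677 in G (adjusted p = 0.00085). Prkcd, the protein kinase C delta gene, rose 1.46-fold (adjusted p = 0.0047), and both of its probe sets rose. Cdk1, the mitotic kinase, rose 1.27-fold (adjusted p = 0.030) and was not called without either Mat-Lylu array (0.16 and 0.14) or without G replicate 1 (0.054). Its adjusted p over all alternatives ran from 0.0028 to 0.16. Akt1 had a log2 difference of 0.32 (SE 0.12) and Prkaca, a catalytic subunit gene of protein kinase A, one of -0.25 (SE 0.14), and neither passed; the second probe set of Prkaca was at 0.22. Without G replicate 0, Akt1 passed at 0.43 (adjusted p = 0.0089, range over alternatives 0.0089 to 0.43), as it did under quantile (0.022), median (0.039) and loess scaling (0.036), and Prkaca at -0.46 (0.0039, range 0.0039 to 0.91).

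Of 11 genes measured of 15 that bind Cx43 or take part in its turnover, 4 rose, none fell and 7 did not pass, where 33.3% of all tested genes passed. Cav1, the caveolin that binds Cx43, rose at least 13.4-fold, with 27820 and 27695 in Mat-Lylu against 900 and 888 in G; it entered the test through its Mat-Lylu level alone, so it had to differ and no p is given. Ezr, the ezrin gene, whose protein anchors protein kinase A near Cx43, rose 2.16-fold (12103 ± 356 in Mat-Lylu and 5600 ± 294 in G, SD, n = 2 each, adjusted p = 3.6e-05 in limma). Dab2, a clathrin adaptor gene, rose 1.73-fold (adjusted p = 0.0015). Nedd4, a ubiquitin ligase gene, rose 1.31-fold (adjusted p = 0.034), and was not called without Mat-Lylu replicate 0 (0.19) or 1 (0.16), over a range of 0.0013 to 0.19. The tubulin genes Tuba1b and Tubb5, whose products bind Cx43, had log2 differences of -0.25 (SE 0.16) and -0.15 (SE 0.13) and did not pass, with signals at saturation on 4 and 3 arrays, so these values have no exact size. Both passed as lower without G replicate 0, while the second, unsaturated probe set of Tubb5 was at 0.22. Among 7 genes measured of 12 in the beta-catenin partner list, 0 passed, and none had an unadjusted p under 0.05; Axin1, a scaffold of beta-catenin destruction, had a log2 difference of -0.11 (SE 0.09) and Gsk3a one of 0.14 (SE 0.11). Dimmer probe sets of Csnk1d, Dbn1 and Gsk3b passed, at log2 differences of 0.96, 0.48 and 0.40, where the brightest did not; these 3 genes were singled out with their values in view.

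In all 7 lists together, 50 genes were tested, 13 rose, 1 fell and 36 did not pass, with a median log2 difference of 0.06. These counts are set beside 13.7% higher and 19.6% lower among all tested genes. The 13 include Cav1 and Cdh6, which entered the test through their Mat-Lylu level alone, and nothing is read from the counts or the median. Apart from Nectin1, no list gene was lower at an unadjusted p under 0.05.

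**Figure D3:**
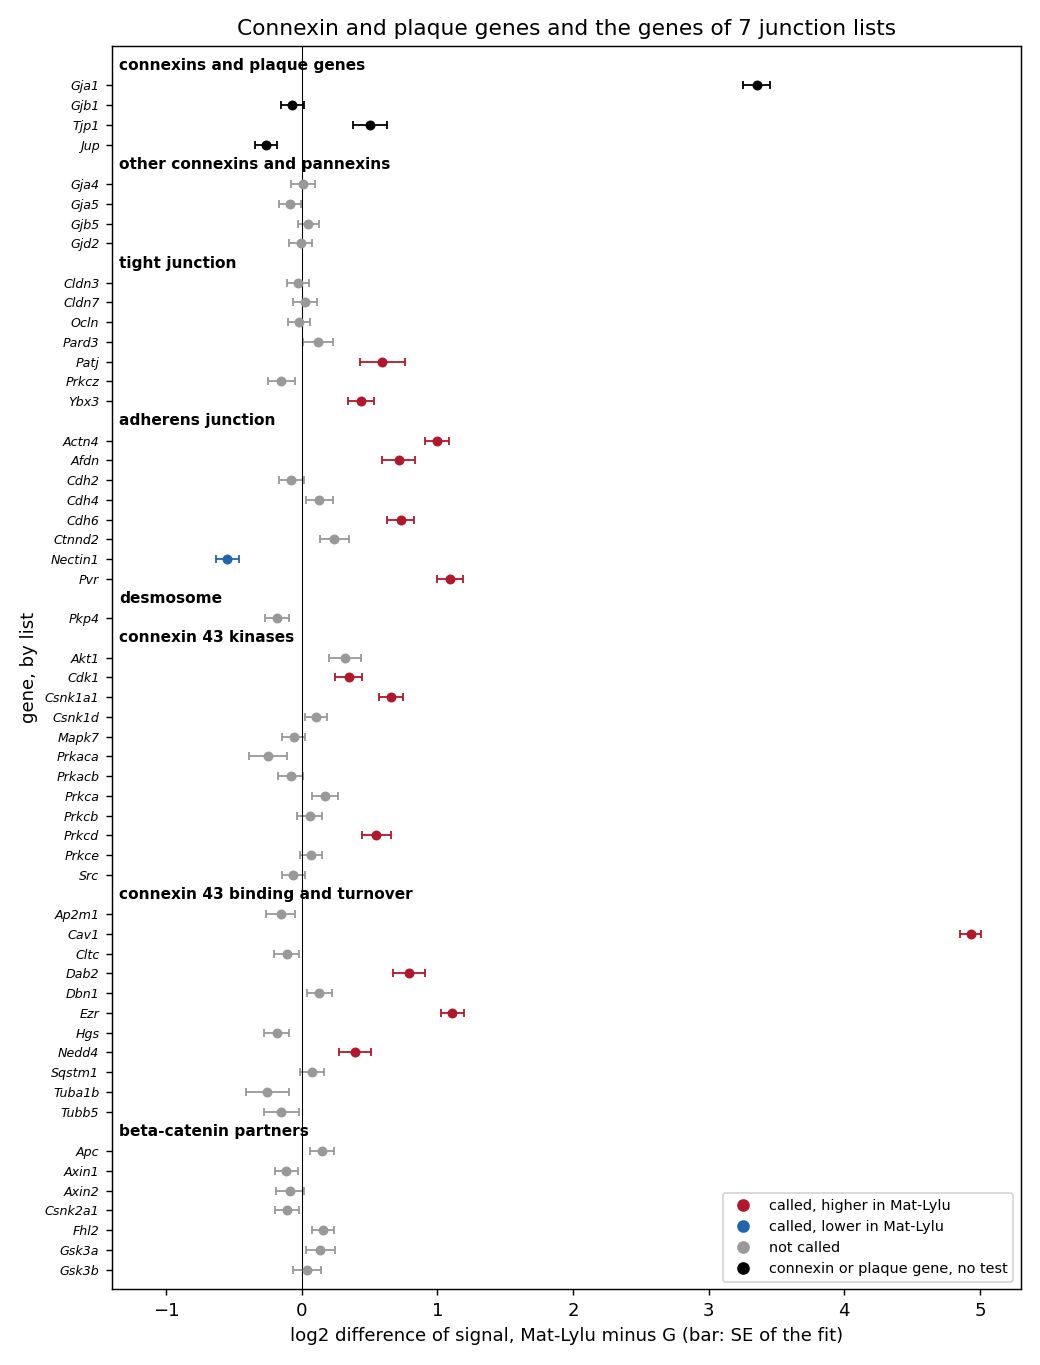
Log2 difference (Mat-Lylu minus G) with the SE of the fit for the tested connexin and plaque genes and for the genes of 7 lists, coloured by the limma call. Gja1 at 3.36 and Cav1 at 4.93 lie far to the right, and both are fitted values without exact size because G was under background.

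By Euclidean distance between centred log2 signals over the 4 arrays, the genes nearest to Gja1 were Dusp6, a phosphatase of ERK kinases (19314 ± 1740 in Mat-Lylu and 1748 ± 164 in G, distance 0.14), and Il33, an interleukin (9843 ± 33.3 in Mat-Lylu and 891 ± 32.4 in G, distance 0.16). Both were above background in Mat-Lylu and under it in G, as Gja1 was. These 2 distances thus rest in part on G values that carry no measured level. Those nearest to Tjp1 were the tetraspanin gene Cd82 (distance 0.038) and Mdfic (0.043), and those nearest to Jup were Itpr1 (0.015) and Tns1 (0.021). Gjb1 was nearest to Atxn7l3 (0.015) and Tnfsf13 (0.017), and Gjb2 to Ptprj (0.025) and Zfp94 (0.049), genes whose signals differed little between the lines; since Gjb2 was under background on every array, its neighbours were ranked on values that carry no measured level. With 4 arrays in 2 groups, such distances describe these arrays and no more.

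**Figure D4:**
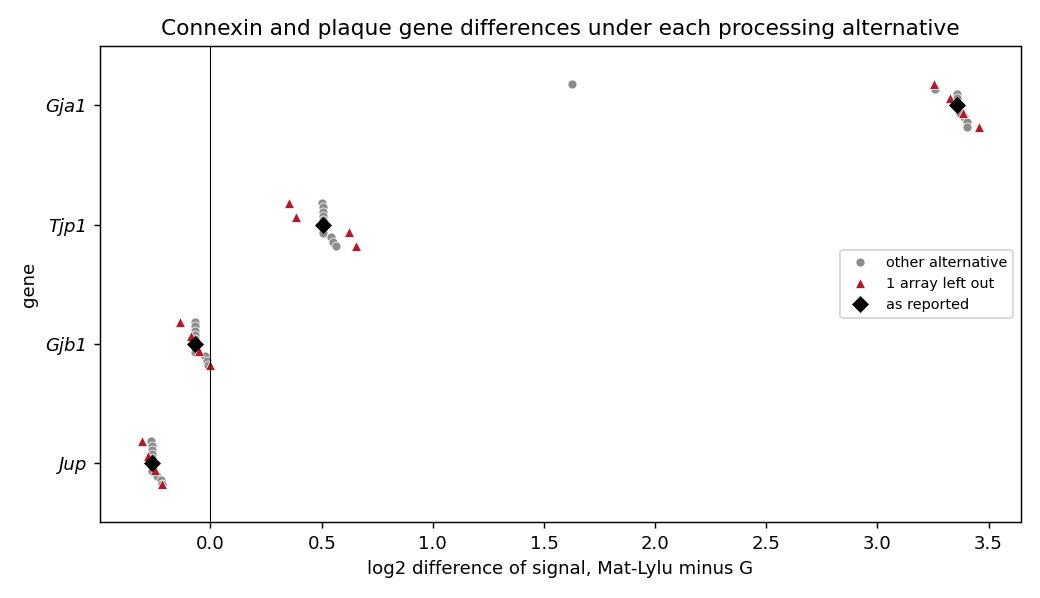
Log2 difference of Gja1, Tjp1, Gjb1 and Jup under each processing alternative; diamonds are the reported values, triangles leave out 1 array, and circles are the other alternatives. The Gja1 value of 1.62 is the alternative that raises signals to the background level, and the other points of Gja1 lie between 3.26 and 3.46.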

How the data were processed

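Probe set signals of 4 oligonucleotide arrays were analysed. The authors deposited 1 table of linear signal intensities, and per the submitters' processing notes these were made with MAS5; its version, scaling target and filters are not stated there. Trimmed means (2% off each tail) differed by at most 7.89% between arrays, so no scaling was added. Of 8799 probe sets, 59 were controls; 7018 had 1 gene symbol, 308 several and 1473 none, and only the first kind was named, with 6994 updated through RefSeq. Signals were tested as log2(signal + 16), without controls and the 25% of probe sets with the lowest mean log2 signal, leaving 6555. The lines were compared by limma 3.58.1 in R 4.3.3 (intensity trend, 2-sided) with Benjamini-Hochberg adjustment over all probe sets, threshold 0.05; every adjusted p is from this fit. A gene was read by its brightest tested probe set. Named were the 5 chosen genes, all measured connexins, up to 4 called genes with the smallest p and 2 bright uncalled ones per list, and for each chosen gene the 2 nearest patterns. These genes and lists were chosen with earlier results of these data known. Depth is unknown for arrays, whose number limits precision. With 2 arrays a line, an exact permutation test could not pass the threshold. The fit was tested on simulated data.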

Additional observations from a re-analysis of the deposited data

How the results depend on the processing

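The log2 differences of Gjb1, Tjp1 and Jup kept their sign in all 15 alternatives, and that of Gja1 in the 14 that tested it; leaving out the lower 50% of probe sets removed Gja1. Gja1 ran from 1.62 (floor at the background level) to 3.46, and Gjb2 was tested with no filter alone, at -0.04. The number of these probe sets that passed, 3 as reported, ran from 1 to 3 with 1 array left out, at 1 without Mat-Lylu replicate 0 and without G replicate 1, and was 2 under quantile, median and loess scaling, with a floor, and with the lower 50% left out. Jup was the one lost under the 3 scalings and with the floor. For all probe sets, 891 higher and 1318 lower became 1119 and 1158 with quantile, 1063 and 1171 with median and 1048 and 1211 with loess scaling; the cause was not tested. They became 951 and 1402 with the replicate block, and ran from 684 to 1005 and from 962 to 1308 with 1 array left out. With the replicate block, 3 of the probe sets of these genes and 13 and 1 of the list genes still passed by count. The deviations of same-numbered arrays from their line means correlated at 0.16 over tested probe sets; with 2 pairs and no label that says what the numbers share, they are only numbers. Junction list genes called ran from 9 to 13 higher and from 1 to 4 lower with 1 array left out, with 4 lower without G replicate 0, which added Prkaca, Tuba1b and Tubb5. Of 14 called list genes, 9 passed in every alternative that tested them. Cav1 is among the 9 and Cdh6 among the 14. Both entered the test through their Mat-Lylu level alone, so nothing is read from these counts. With 1 array left out, the lone array is assumed to vary like the other line's. Signals near background limit Gja1 in G and Gjb2 in both lines.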
